A study of Mus musculus with 6 samples.

Results

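Translation initiation and elongation factors are the proteins that place the ribosome on an mRNA, find its start codon and then move the ribosome along the codons. Initiation begins when eIF2 brings the initiator methionyl-tRNA to the small ribosomal subunit together with eIF1, eIF1A, eIF3 and eIF5, while the cap-binding complex eIF4F recruits the mRNA. In elongation eEF1A delivers each aminoacyl-tRNA, the product of the aminoacyl-tRNA synthetases, and eEF2 moves the ribosome by a codon, and skeletal muscle is known for switching from eEF1A1 to eEF1A2 after birth. The genes described here were the protein-coding rows of the count table with a symbol starting with Eif or Eef, without the kinases of eIF2 (Eif2ak1, Eif2ak2, Eif2ak3 and Eif2ak4), Eif4ebp1 and Eef1e1. This gave 62 genes of the 53084 in the table, 50 with a symbol starting with Eif and 12 starting with Eef, and they were chosen by name and not by their values.

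RNA came from the muscle of 6 male mice of strain C57BL/6 (C57BL/6J zygotes, per the study's methods), 6 weeks old and fed standard chow, with 1 library per mouse. The 3 Tarsl2+/+ mice were numbers 583, 584 and 595, and the 3 Tarsl2-/- mice were numbers 588, 589 and 591, and values are given in that order throughout. Tarsl2 encodes a threonyl-tRNA synthetase-like protein, and its knockout was made by CRISPR/Cas9 deletion of a fragment with exon 3 in zygotes, so that every cell of the body carried it and no effect in muscle cells can be told apart from effects of other tissues. Which muscle was taken, and whether mice were littermates, is not given in the sources used here, and the comparison asks how loss of this gene changed the muscle transcriptome.

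The libraries held 16176591 to 20123767 counts, and the 62 genes took 1.57% to 1.64% of them in Tarsl2+/+ mice and 1.66% to 1.79% in Tarsl2-/- mice. Tarsl2 itself had 456, 605 and 464 counts in Tarsl2+/+ mice and 40, 30 and 37 counts in Tarsl2-/- mice, which matched the labels. Skeletal muscle markers were abundant, with a mean of 21681 CPM (the read count normalised to library size, here with TMM factors) for the actin gene Acta1 in Tarsl2+/+ mice. Markers of other cell types also differed in level between genotypes. All 7 leukocyte markers with enough counts were lower in Tarsl2-/- mice at an unadjusted p under 0.05 (10.2% of all genes were), Lyz2 and Cd74 also after adjustment. In 5 of them the genotypes did not overlap. S100a8 and S100a9 overlapped and were highest in mouse 583, S100a8 with 34.6, 0.372 and 6.77 CPM in Tarsl2+/+ mice. The summed level of all 8 listed was 941 to 1135 CPM in Tarsl2+/+ mice and 489 to 636 CPM in Tarsl2-/- mice. Most of this sum was Lyz2, with means of 911 and 493 CPM. The summed level of 5 erythroid markers was 4747 to 10387 CPM against 4165 to 4534 CPM, the 7 slow-fibre markers reached 787 to 1423 CPM against 1089 to 1728 CPM, and the endothelial marker Cdh5 was lower after adjustment. The summed levels of 4 fibroblast markers (8038 to 9513 CPM against 6866 to 7964 CPM) and of 4 endothelial markers (81.2 to 99.6 CPM against 65.4 to 78.4 CPM) were also lower in Tarsl2-/- mice without overlap. Taken singly, only Col1a1 in the first list and Cdh5 in the second did not overlap. Most of the fibroblast sum was Col3a1, with means of 6360 and 5436 CPM and groups that overlapped. Of the 10 muscle fibre markers, Ckm, Actn3 and Myh1 were higher in Tarsl2-/- mice after adjustment, and 8 of the 10 estimates were above 0. Pvalb was lower without overlap (33247, 29324 and 29360 CPM against 29180, 24802 and 24551 CPM) but was not called. The summed level of the 10 overlapped, with 88880 to 96768 CPM against 89933 to 106340 CPM. In the erythroid, slow-fibre, fibroblast, satellite cell, Schwann cell and adipocyte lists 0 genes were called. The library title of Tarsl2-/- mouse 589 has KOT where those of the other knockout mice have KO, a difference that the sources used here do not explain. This mouse stood apart with 3471 CPM of 4 adipocyte markers, against 1102 to 1790 CPM in the other 5 mice, and 105 CPM of 3 Schwann cell markers, against at most 58.7 CPM in the others. In bulk muscle, fewer cells of a type and less RNA per cell cannot be told apart, and the part of these shifts in the results on translation factors was not tested.

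The start of the mRNA is of interest for these genes, because many mRNAs of the translation machinery begin with an uninterrupted run of C and T (a 5' terminal oligopyrimidine tract), through which their translation follows mTOR activity. RefSeq promoter sequences (GRCm38.p6) were found for 47 of the 62 genes. The other 15 were Eef1akmt1, Eef1akmt3, Eef1d, Eef1g, Eif1a, Eif2b3, Eif3e, Eif3h, Eif3i, Eif3j2, Eif4e1b, Eif4e3, Eif4ebp3, Eif4g2 and Eif6. In the 30 bases around the annotated start (15 before it and 15 from it on), 11 of the 47 (23.4%) held a run of at least 8 bases of C or T on the strand of the mRNA, against 13.9% of all 27025 genes in the RefSeq table. Windows are shown for Eef2, Eef1a2 and Eif2s3x, which had among the smallest p-values below, and for the paralogs Eef1a1 and Eif2s3y, with the longest run in capitals and the sixteenth base as the annotated start.
Eef2, chr10:81176616-81176645, forward strand: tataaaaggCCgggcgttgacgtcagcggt
Eef1a1, chr9:78481710-78481739, reverse strand: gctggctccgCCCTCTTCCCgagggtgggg
Eef1a2, chr2:181157001-181157030, reverse strand: TCTCTCCTggtctgcgttctcgctcactgg
Eif2s3x, chrX:94212637-94212666, reverse strand: ctgccgagcaTTTTCCTTTTCTCTCCgagc
Eif2s3y, chrY:1010580-1010609, forward strand: gcggaggccacagccaCTTCCTTCTTTCgt
The run was short in Eef2 and lay before the annotated start in Eef1a2, while in Eef1a1 and Eif2s3x it spanned the start and in Eif2s3y it followed it. These are matches of letters at the start RefSeq annotates, which may not be the start used in muscle. The annotated starts of Eef1a1, Eif2s3x and Eif2s3y lie inside the genes as the count table bounds them. The counts per gene used here do not measure translation. Changes are given as log2 fold changes, positive where Tarsl2-/- muscle was higher. For the 11 genes with a run their median was 0.11, with a range of -0.03 to 0.40, and the 36 tested genes with a window and no such run had a median of 0.05 and a range of -0.24 to 0.36. The ranges thus overlapped over most of their length.

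Levels were compared between genes per exon length, as RPKM (CPM per kilobase of exon), averaged over the 6 mice. Elongation factors stood at the top. Eef1a1 had 2013 RPKM, which was 34.0% of the summed level of all 62 genes, followed by Eef2 with 611, Eef1a2 with 384, Eef1g with 353 and Eef1b2 with 344 RPKM. The most abundant initiation factors were Eif3h with 276, Eif1 with 271, Eif3e with 194, Eif5a, which also acts in elongation, with 182 and Eif4a2 with 114 RPKM. At the low end were the selenocysteine elongation factor Eefsec with 0.936 and Eif5a2 with 0.679 RPKM, so that tested genes spanned a 2967-fold range of levels. Between neighbours in this order, the ranges over the 6 mice overlapped in 47 of 61 pairs. They were separate in 14, among them Eef1a1 above Eef2 and Eef2 above Eef1a2, whereas Eef1a2 and Eef1g, and Eef1g and Eef1b2, overlapped. RPKM rests on the exon length given in the count table, which equals the total exon length in GENCODE vM21 for 50 of the 62 genes. This total counts every annotated exon, whether or not muscle uses it, so comparisons of RPKM between genes are approximate.

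**Figure D1:**
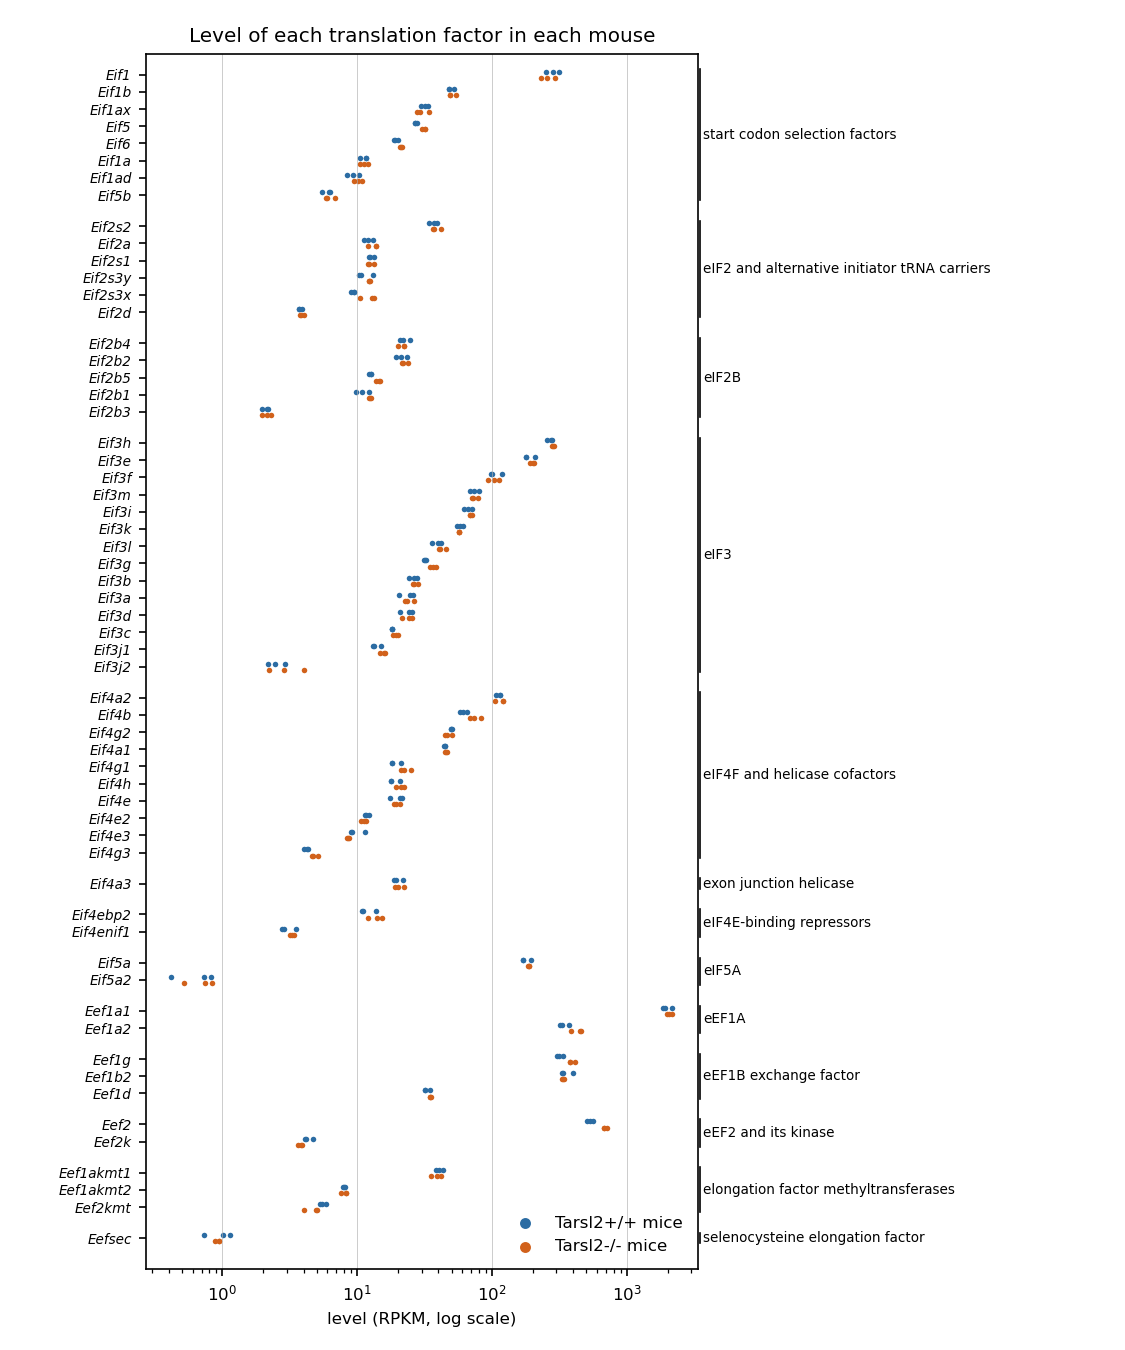
Level of the 59 tested genes in each mouse, in RPKM on a log axis, grouped by role and sorted by mean level within a role. Each point is a mouse, blue for Tarsl2+/+ and orange for Tarsl2-/-. Eef1a1 stands highest at a mean of 2013 RPKM, and the distance between genes is far larger than the distance between genotypes.

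Too few counts for a test were found in 3 genes, which left 59. Eef1akmt3 had 4, 9 and 10 counts in Tarsl2+/+ mice and 1, 3 and 8 in Tarsl2-/- mice. Eif4ebp3 had between 0 and 3 counts per mouse and Eif4e1b, an eIF4E form known from oocytes, between 0 and 2 counts, both at or below the floor of 3 counts used here for detection in a library.

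No translation factor passed the test between genotypes after adjustment over all 15075 genes tested. Of the 59, 0 had an adjusted p under 0.05 in edgeR's quasi-likelihood test, where 342 of all genes (2.27%) did, 135 (0.896%) higher and 207 (1.37%) lower. At an unadjusted p under 0.05 there were 10 of the 59, all higher in Tarsl2-/- muscle. This is 16.9%, where 9.57% of all genes were higher at this threshold, 10.2% lower and 19.8% either way. Of the 1697 genes at or above the median level of the translation factors, 266 were higher at this threshold and 219 lower, 28.6% either way. DESeq2, the tool named in the study's methods, called 4 (Eef2, Eef1g, Eef1a2 and Eif2s3x, all higher) where it called 4.96% of all genes. The limma-voom fit called 0 of the 59, where it called 318 of all genes. With no filter on low counts, edgeR called Eef2, Eef1a2 and Eif2s3x (5.62% of all genes), and without Tarsl2-/- mouse 588 it called Eif2s3x (1.21% of all genes). Without mouse 589, edgeR called 0 of the 59, where it called 126 of all genes. In that fit 6 of the 59 had an unadjusted p under 0.05, all higher, and the share over all genes was not computed.

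The changes were small. Log2 fold changes ran from -0.24 for Eef2kmt to 0.40 for Eif2s3x, with a median of 0.07 against 0.00 for all genes. In 42 of the 59 the estimate was above 0 (71.2%, against 50.4% of all genes tested), and over the 13 alternatives in processing this count lay between 38 and 45. The median size of the change was 0.08, about that of its standard error (median 0.09), while over all genes tested the median size was 0.17 and the median standard error 0.14. For 56 of the 59, the 95% interval lay within a 1.5-fold change either way, which held for 58.5% of all genes, for 74.1% of genes at or above the lowest level of a translation factor and for 86.4% at or above their median level. The exceptions were Eif2s3x, Eif3j2 and Eif5a2. In 13 genes every Tarsl2-/- mouse lay above every Tarsl2+/+ mouse (22.0%, against 12.6% of all genes), in 3 every Tarsl2-/- mouse lay below (5.08%, against 12.0%), and in sum 16 of the 59 did not overlap (27.1%, against 24.6%). Among genes at or above the median level of the translation factors, these shares were 19% above, 13.1% below and 32.2% in sum. The 13 were the 10 genes with an unadjusted p under 0.05 and Eif3c, Eif3h and Eif6, a factor that keeps the ribosomal subunits apart, and the 3 were Eif4e3, Eef2k and Eef2kmt.

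**Figure D2:**
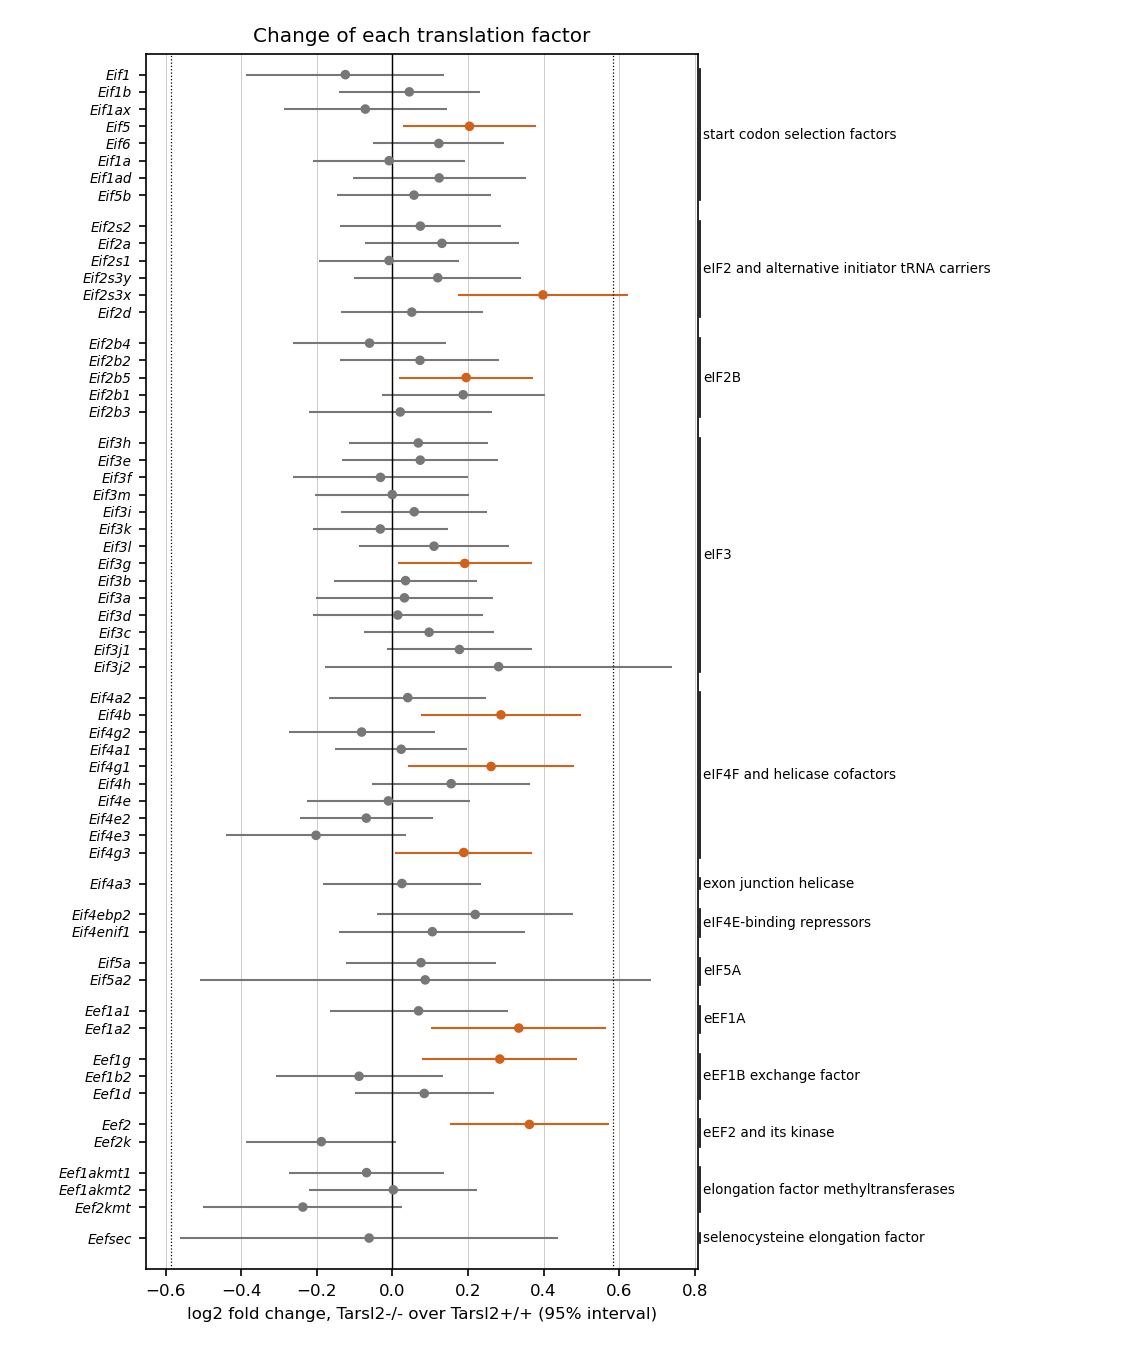
Log2 fold change of the 59 tested genes (point) with its 95% interval (line), grouped by role. The solid line marks no change and dotted lines a 1.5-fold change, orange marks the 10 genes whose interval lies above 0 and grey the rest, and no interval lies wholly below 0.

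The elongation factors held 3 of the 4 smallest p-values. Eef2 (chr10:81176631-81182498, forward strand), the translocase, had 1782, 1687 and 1865 CPM in Tarsl2+/+ mice and 2233, 2256 and 2370.0 CPM in Tarsl2-/- mice. Each Tarsl2-/- mouse lay above the highest Tarsl2+/+ mouse, with means of 2286 ± 73.5 against 1778 ± 89.3 CPM (SD, n = 3 each). The log2 fold change was 0.36 (standard error 0.10, a 1.29-fold higher mean), with an edgeR adjusted p of 0.0716 and a DESeq2 adjusted p of 0.00263. When a mouse was left out, edgeR's adjusted p ran from 0.0733 to 0.223.

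Among the genes chosen by name, the 2 that act on eEF2 gave values in the other direction. Eef2k, the kinase that phosphorylates eEF2 and thereby slows elongation, had 34.6, 30.6 and 30.8 CPM in Tarsl2+/+ mice and 28.7, 26.9 and 28.6 CPM in Tarsl2-/- mice. Eef2kmt, which methylates eEF2 on a lysine, had 13.9, 14.4 and 15.4 CPM and 10.6, 13.2 and 13.4 CPM in the same order. In both, all Tarsl2-/- mice were below all Tarsl2+/+ mice, but neither passed the test (log2 fold changes -0.19 and -0.24, edgeR adjusted p = 0.278 and 0.306). The Eef2kmt gene shares exon sequence with Alg1 on the opposite strand, and whether counting used strand is not stated. Such an overlap was present in 16 of the 62 genes.

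Of the 2 genes for eEF1A, the aminoacyl-tRNA carrier, Eef1a2 showed the larger difference. Eef1a2 (chr2:181147653-181157014, reverse strand), the form of mature muscle and neurons, had 664, 777 and 683 CPM in Tarsl2+/+ mice and 927, 800.2 and 950.4 CPM in Tarsl2-/- mice. The groups did not overlap, although Tarsl2-/- mouse 589 and Tarsl2+/+ mouse 584 were close to each other. Means were 893 ± 80.8 against 708 ± 60.3 CPM (SD, n = 3 each), a log2 fold change of 0.33 with a standard error of 0.11. The edgeR adjusted p was 0.116 and that of DESeq2 0.0364, and without 1 mouse edgeR gave 0.0577 to 0.348. Eef1a1 (chr9:78478449-78489151, reverse strand), the form made in most cells, had 4748, 4590.5 and 5357 CPM and 4928, 5070.5 and 5421 CPM, and its groups overlapped (log2 fold change 0.07, 95% interval -0.17 to 0.30, edgeR adjusted p = 0.774).

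Eef1a1 and Eef1a2 are closely related in sequence, so that reads shared by both could be assigned to either. Eef1a1 made up 85.7, 83.2 and 86.8% of eEF1A counts per exon base in Tarsl2+/+ mice and 81.6, 84.1 and 82.7% in Tarsl2-/- mice. The shares overlapped, and the difference of -2.40 percentage points did not pass the exact two-sided permutation test (p = 0.2). The level of Eef1a1 in this tissue includes that of its non-muscle cells. Some markers of these cells differed between genotypes as given above, and the part of these cells in the Eef1a1 values was not tested.

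The eEF1B complex recharges eEF1A with GTP. Its gamma subunit, Eef1g (chr19:8967041-8978479, forward strand), which anchors the others, had 789.5, 816 and 877 CPM in Tarsl2+/+ mice and 976, 981 and 1067 CPM in Tarsl2-/- mice. All Tarsl2-/- mice were above all Tarsl2+/+ mice, and the log2 fold change was 0.28 (standard error 0.09), with an edgeR adjusted p of 0.128 and a DESeq2 adjusted p of 0.0470. The nucleotide-exchange subunit Eef1b2 had 848, 836 and 1008 CPM and 859, 844 and 829 CPM, and the Tarsl2-/- values lay inside the range of the Tarsl2+/+ values except in mouse 591, which was just below it. Its log2 fold change was -0.09 (95% interval -0.31 to 0.13, edgeR adjusted p = 0.679). Eef1b2 shares exon sequence with Ndufs1 on the opposite strand. The other exchange subunit, Eef1d, had 187, 186 and 206 CPM and 203, 207 and 204 CPM, and its groups overlapped.

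**Figure D3:**
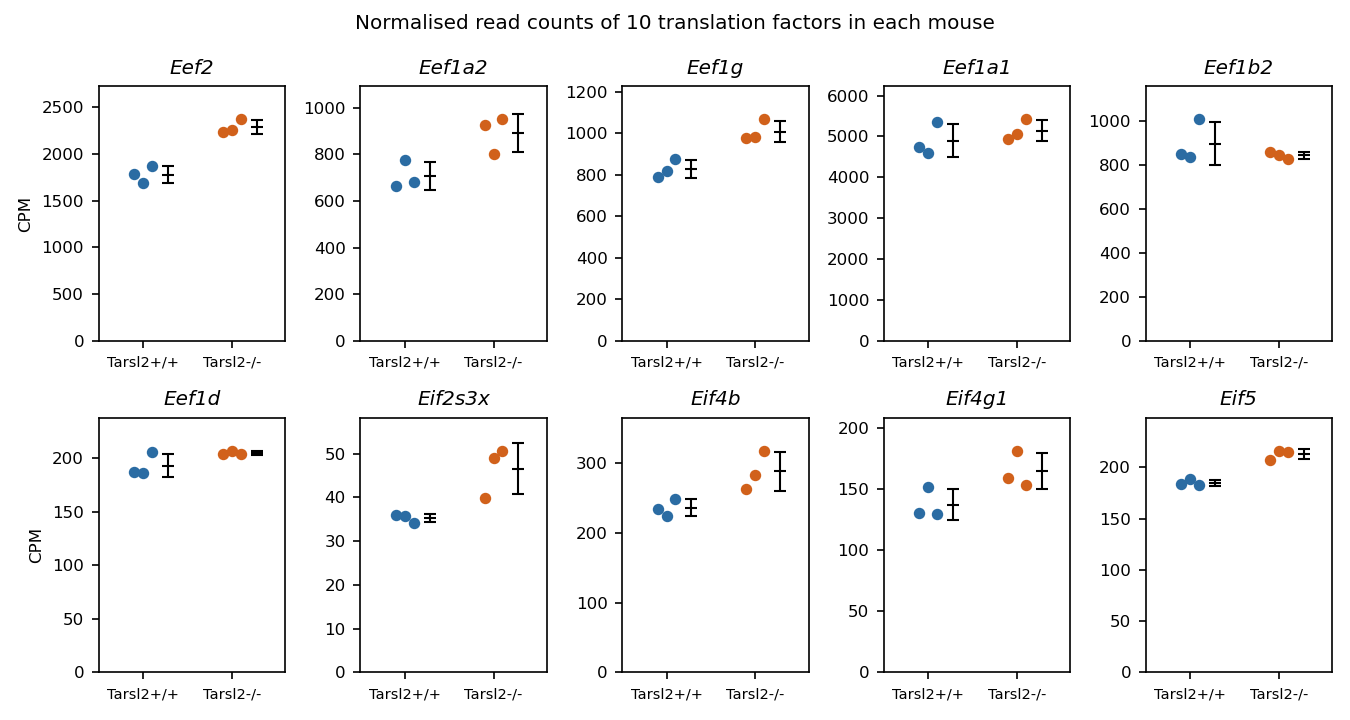
Normalised read counts (CPM) of 10 translation factors in each mouse, with axes from 0. Points are mice (blue Tarsl2+/+, orange Tarsl2-/-) and the black mark beside them is the mean ± SD (n = 3). Eef2, Eef1a2, Eef1g, Eif2s3x, Eif4b, Eif4g1 and Eif5 do not overlap between genotypes, while Eef1a1, Eef1b2 and Eef1d do.

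The methyltransferases of eEF1A gave intervals that span 0. Eef1akmt1 had a log2 fold change of -0.07 (95% interval -0.27 to 0.14) and Eef1akmt2 of 0.00 (-0.22 to 0.22). Eefsec, which brings selenocysteinyl-tRNA to the ribosome, had 2.81, 3.19 and 2.05 CPM and 2.45, 2.62 and 2.62 CPM, and its interval of -0.56 to 0.44 was wide at this depth.

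Among initiation factors, the largest difference was in eIF2, the carrier of the initiator tRNA. Its gamma subunit, which binds GTP and the tRNA, is encoded on both sex chromosomes in mice. The X-linked Eif2s3x (chrX:94188707-94212862, reverse strand) had 35.9, 35.8 and 34.2 CPM in Tarsl2+/+ mice and 39.9, 49.0 and 50.6 CPM in Tarsl2-/- mice. The groups were separate, and mouse 588 was the lowest of the Tarsl2-/- mice and nearest to the other genotype. Means were 46.5 ± 5.81 against 35.3 ± 0.925 CPM (SD, n = 3 each), and the log2 fold change was 0.40 with a standard error of 0.10. The edgeR adjusted p was 0.0676 over all mice, 0.0363 without mouse 588 and up to 0.202 without another mouse, and DESeq2 gave 0.0336.

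The Y-linked copy Eif2s3y had 44.7, 42.6 and 54.4 CPM and 50.8, 52.1 and 51.0 CPM, and its groups overlapped (log2 fold change 0.12, edgeR adjusted p = 0.553). Per exon base the copies were about equally abundant, with 10.7 RPKM for Eif2s3x and 11.8 RPKM for Eif2s3y over all mice. The X-linked copy made up 46.7, 47.8 and 40.7% of both in Tarsl2+/+ mice and 46.1, 50.6 and 52.0% in Tarsl2-/- mice, which overlapped (difference of 4.50 percentage points, exact two-sided permutation test, p = 0.3). The copies are close in sequence, so their split of shared reads is uncertain.

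The other subunits of eIF2 gave smaller estimates. Eif2s1, the alpha subunit that stress kinases phosphorylate, had 65.9, 61.0 and 60.3 CPM and 66.2, 60.2 and 59.8 CPM, with a log2 fold change of -0.01 (95% interval -0.19 to 0.18). Eif2s2, the beta subunit and the most abundant of them at 37.6 RPKM, had a log2 fold change of 0.07 (-0.14 to 0.29). Over the 6 genes of eIF2 and the alternative carriers Eif2a and Eif2d, 0 were called, 5 were above 0 and the median was 0.10.

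eIF2B exchanges GDP for GTP on eIF2. Of its 5 subunits, 0 were called and 4 were above 0, with a median of 0.07. Eif2b5, the catalytic epsilon subunit, had 40.8, 40.3 and 39.4 CPM in Tarsl2+/+ mice and 47.6, 46.3 and 44.0 CPM in Tarsl2-/- mice, which did not overlap (log2 fold change 0.20, edgeR adjusted p = 0.208). Eif2b4, the delta subunit, which at 21.9 RPKM was level with Eif2b2, had the lowest log2 fold change, -0.06 (95% interval -0.26 to 0.14).

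The factors of start codon selection and subunit joining numbered 8, of which 0 were called, 5 were above 0 and the median was 0.05. Eif5, which triggers GTP hydrolysis by eIF2, had 183, 188 and 183 CPM and 207, 216 and 215 CPM. This was a narrow but separate pair of groups, with means of 213 ± 4.83 against 185 ± 2.90 CPM (SD, n = 3 each), a log2 fold change of 0.20 and an edgeR adjusted p of 0.187. Eif1, which keeps the scanning ribosome from wrong start codons, gave the lowest estimate with 596, 523 and 662 CPM and 616, 536 and 482 CPM. Its groups overlapped widely (log2 fold change -0.12, edgeR adjusted p = 0.614). The log2 fold changes of Eif1b, Eif1a and Eif1ax were 0.04, -0.01 and -0.07, all with groups that overlapped.

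eIF3, the large scaffold on the small ribosomal subunit, was represented by 14 genes. Of these 0 were called, 11 were above 0, and the median was 0.06. Eif3g, an RNA-binding subunit that takes part in scanning, had 62.4, 63.2 and 64.6 CPM in Tarsl2+/+ mice and 68.2, 72.5 and 76.4 CPM in Tarsl2-/- mice, without overlap (log2 fold change 0.19, edgeR adjusted p = 0.218). Eif3h, the most abundant at 276 RPKM, had 347, 322 and 344 CPM and 348, 355 and 359.8 CPM, which were separate by less than 1 CPM (log2 fold change 0.07, edgeR adjusted p = 0.704). Eif3k had the lowest estimate, -0.03 (95% interval -0.21 to 0.15). The highest was that of Eif3j2, at 0.28, from 5.14, 5.79 and 6.88 CPM and 9.53, 5.30 and 6.80 CPM, where Tarsl2-/- mouse 588 alone lay above the Tarsl2+/+ mice and the interval ran from -0.18 to 0.74. Its near-identical copy Eif3j1 had 77.3, 87.2 and 75.9 CPM and 92.9, 86.4 and 92.4 CPM (log2 fold change 0.18, edgeR adjusted p = 0.29), and reads of the 2 cannot be split with certainty. The eIF3 subunits act in 1 complex. Their mRNA levels ran from 14.6 RPKM for Eif3j1 to 276 RPKM for Eif3h, with 2.76 RPKM for the copy Eif3j2. Exon length, by which RPKM divides, was 5830 bases for Eif3j1 and 1253 for Eif3h. Means of Eif3j1 and Eif3h in Tarsl2+/+ mice were 80.1 and 338 CPM, so part of the distance in RPKM rests on exon length.

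The eIF4F complex binds the cap (eIF4E), unwinds the leader (eIF4A) and holds these parts together (eIF4G), with eIF4B and eIF4H as partners of the helicase. Of 10 tested genes of this group 0 were called, 6 were above 0 and the median was 0.03. The scaffold genes and the helicase partner eIF4B gave the highest log2 fold changes. Eif4b had 234, 224 and 249 CPM in Tarsl2+/+ mice and 263, 283 and 317 CPM in Tarsl2-/- mice. The groups did not overlap (log2 fold change 0.29, standard error 0.10), with an adjusted p of 0.133 by edgeR and 0.0841 by DESeq2. Eif4g1, the main scaffold, had 131, 152 and 129.7 CPM and 159.7, 182 and 153 CPM, with mouse 584 only just below the lowest Tarsl2-/- mouse (log2 fold change 0.26, edgeR adjusted p = 0.178). Eif4g3, a related scaffold with 4.51 RPKM beside 20.9 RPKM for Eif4g1, had 48.0, 44.6 and 47.2 CPM and 56.2, 52.0 and 51.2 CPM, again separate (log2 fold change 0.19, edgeR adjusted p = 0.235). Eif4g2, a relative of eIF4G that does not bind eIF4E, had 505, 509 and 506 CPM and 509.7, 473 and 454 CPM, and its groups overlapped (log2 fold change -0.08).

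The cap-binding proteins gave estimates below 0. Eif4e had 129, 125 and 105 CPM and 125, 117 and 113 CPM (log2 fold change -0.01, 95% interval -0.23 to 0.21). Eif4e2, a cap-binding protein known for repressing translation, had a log2 fold change of -0.07 (-0.24 to 0.11). Eif4e3 had 22.6, 28.6 and 23.0 CPM in Tarsl2+/+ mice and 21.5, 21.9 and 21.2 CPM in Tarsl2-/- mice, so that all Tarsl2-/- mice were below, with mouse 584 standing above the rest (log2 fold change -0.20, edgeR adjusted p = 0.333). The helicase genes Eif4a1 and Eif4a2 had log2 fold changes of 0.02 (-0.15 to 0.20) and 0.04 (-0.17 to 0.25). Eif4a2 was the more abundant, with 114 against 45.0 RPKM. A processed pseudogene of this family, Eif4a-ps4, collected 506 to 849 counts per mouse, and whether these reads came from the helicase genes cannot be told from the counts.

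The last initiation genes lie beside this pathway. Eif4a3, a relative of the helicase that sits in the exon junction complex, had a log2 fold change of 0.03 (-0.18 to 0.23). Eif4ebp2, which binds eIF4E and represses it, had 63.5, 79.8 and 62.7 CPM and 81.2, 88.9 and 70.0 CPM, with groups that overlapped (log2 fold change 0.22, edgeR adjusted p = 0.335). Eif4enif1, which carries eIF4E to the nucleus and to P-bodies, had a log2 fold change of 0.11 (edgeR adjusted p = 0.651). Eif5a, whose protein carries the modified lysine hypusine, had 399.6, 458 and 406 CPM and 447, 440.0 and 445 CPM (log2 fold change 0.08, 95% interval -0.12 to 0.27), and Eif5a2, which shares the modification, stayed low in all mice at 3.68, 4.14 and 2.10 CPM and 2.62, 4.18 and 3.74 CPM.

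Shares within pairs of related genes, which do not depend on library size, were compared in 10 pairs. The groups overlapped in all 10, no unadjusted p of the exact two-sided permutation test was below 0.2, and all were at least 0.75 after Benjamini-Hochberg adjustment over the 10 pairs. This test cannot go below 0.1 for 3 mice against 3. The share of Eif4a1 in the helicase pair was 28.4, 29.1 and 28.1% in Tarsl2+/+ mice and 27.7, 30.2 and 27.1% in Tarsl2-/- mice. Eif4g1 held 80.7, 83.9 and 80.8% and 81.3, 84.2 and 82.1% of its pair with Eif4g3. Eif4e made up 70.4, 64.6 and 65.6% and 71.0, 69.2 and 68.9% beside Eif4e3. Shares of Eif5a beside Eif5a2 were above 99% in every mouse. Mice of 1 genotype differed most in the pair Eif2s3x and Eif2s3y, with an SD of 3.82 percentage points among Tarsl2+/+ mice.

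**Figure D4:**
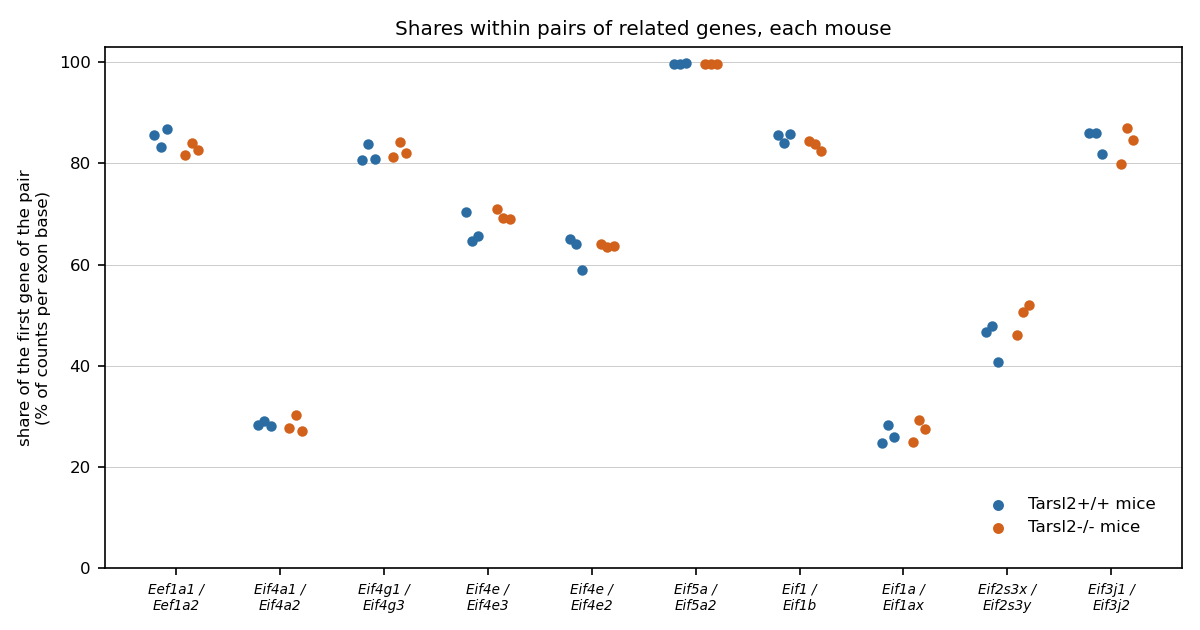
Share of the first-named gene in 10 pairs of related translation factor genes, in percent of counts per exon base, for each mouse (blue Tarsl2+/+, orange Tarsl2-/-). The genotypes overlap in every pair, and pairs differ from 24.8% to 99.8% in single mice.

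Genes around this pathway were read from lists of related function. Of the 6 genes left out by name, 0 were called. Eif4ebp1, an eIF4E repressor controlled by mTOR, came nearest, with a log2 fold change of 0.33, an edgeR adjusted p of 0.0866 and all Tarsl2-/- mice above all Tarsl2+/+ mice. The eIF2 kinases Eif2ak1, Eif2ak2, Eif2ak3 and Eif2ak4 had log2 fold changes of 0.19, -0.18, -0.16 and -0.02, and Eef1e1, which belongs to the multi-synthetase complex, had 0.01. In the list of 14 kinases, phosphatases and other regulators that signal to translation factors, 0 were called, 13 were above 0, and 7 (50%) had an unadjusted p under 0.05, all higher, where 9.57% of all genes were higher at this threshold. Their median log2 fold change was 0.26. The lists of this paragraph were chosen with earlier results of these data known, so their shares are descriptions and no independent evidence. Of 15 poly(A)-binding, termination and recycling factors 0 were called and 3 had an unadjusted p under 0.05 (median 0.10). Of 9 tested enzymes that modify eIF5A and eEF2, the hypusine and diphthamide enzymes, 0 were called and 1 had an unadjusted p under 0.05 and was lower (median -0.02). The 9 mitochondrial translation factors had 0 calls, 1 gene with an unadjusted p under 0.05, which was higher, and a median of 0.00.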

How the data were processed

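Muscle RNA of 3 Tarsl2+/+ and 3 Tarsl2-/- mice was sequenced, and the authors deposited raw read counts per gene. Per the study's methods, libraries were stranded and poly(A)-selected and reads were mapped with HISAT2 to mm10, whereas the submitters' processing notes name Bowtie 0.12.2 and another build. The counting tool and its strand setting are not given in the sources used here. Gene positions follow the count table, and 52 of the 62 genes have the same ones in GENCODE vM21 (GRCm38).

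Genes were kept by filterByExpr (minimum count 10, total 15), then given TMM factors and compared by edgeR's quasi-likelihood F-test (edgeR 4.0.16, R 4.3.3, a model with genotype alone), with Benjamini-Hochberg adjustment over 15075 genes and a threshold of 0.05. The common biological coefficient of variation was 12.1%. Standard errors are the log2 fold change over the root of F, and 95% intervals use the t distribution with the fit's degrees of freedom. The fit was tested on simulated data. P-values measure only the spread between these mice. Shares were compared by exact permutation tests in scipy 1.17.1. Alternatives were DESeq2 1.42.0, limma-voom (limma 3.58.1), RLE and upper quartile scaling, no filter on low counts, at least 10 counts in every library, protein-coding genes only, shares without exon length, and leaving out each mouse. Genes named were any called, the 10 with the smallest p in each direction, both genes of each pair, and in each role the extremes of change and the most abundant. Other genes are named where a result refers to them. The extraction text of the sample records names another tissue than muscle, and a check of that tissue's markers is not reported here. Genes and lists were chosen with earlier results of these data known. All 6 count columns of the table were used.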

Additional observations from a re-analysis of the deposited data

How the results depend on the processing

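The count of translation factors called was 4 with DESeq2 and 3 with no filter on low counts, between 0 and 1 when a mouse was left out, and 0 in each other alternative. Over all genes, 719 were called with DESeq2, 1437 with no filter on low counts and between 81 (without Tarsl2+/+ mouse 583) and 625 (without Tarsl2+/+ mouse 584) when a mouse was left out, and 318 to 363 in the remaining alternatives. The cause was not tested. The median log2 fold change of the 59 tested translation factors was 0.07 with DESeq2, limma-voom and RLE scaling, 0.05 with upper quartile scaling, and 0.04 to 0.08 when a mouse was left out, while the median over all genes moved to no more than -0.02. The sign of the log2 fold change held in all 13 alternatives for 42 genes and turned in at least 1 for 17, whose size of change was at most 0.09.

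With a mouse left out, log2 fold changes turned sign within ranges of -0.14 to 0.0017 for Eef1b2, -0.11 to 0.0086 for Eif2b4, -0.099 to 0.042 for Eif4e, -0.060 to 0.034 for Eif1a, -0.16 to 0.29 for Eif5a2, -0.0078 to 0.082 for Eif1b, -0.057 to 0.027 for Eif2s1, -0.037 to 0.097 for Eif4a3, -0.020 to 0.045 for Eef1akmt2, -0.23 to 0.086 for Eefsec. For Eef1akmt2 the sign also turned to -0.000724 with limma-voom, -0.0196 with upper quartile scaling, -0.0011 with no filter and -0.000356 with a minimum of 10 counts per library. Differences in paralog share turned sign within ranges of -1.15 to 0.44 for Eif4a1 against Eif4a2, -0.090 to 1.82 for Eif4g1 against Eif4g3, -0.83 to 2.25 for Eif4e against Eif4e2, -0.054 to 0.057 for Eif5a against Eif5a2, -0.080 to 2.12 for Eif1a against Eif1ax, -2.29 to 1.23 for Eif3j1 against Eif3j2 percentage points. Shares without exon length kept the sign in all 10 pairs. No analysis paired by litter was possible because the sources used here do not give whether the sequenced mice were littermates. Precision was lowest for the genes with fewest counts, with 95% intervals of -0.56 to 0.44 for Eefsec and -0.51 to 0.68 for Eif5a2.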

Other observations

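The subunits of the eEF1B exchange factor were also compared with each other within a mouse, a comparison chosen after their values were seen and therefore given with no test. The ratio of Eef1g to Eef1b2 (RPKM over RPKM) was 0.907, 0.950 and 0.848 in Tarsl2+/+ mice 583, 584 and 595, and 1.11, 1.13 and 1.25 in Tarsl2-/- mice 588, 589 and 591. Eef1g was thus below Eef1b2 in each Tarsl2+/+ mouse and above it in each Tarsl2-/- mouse. The ratio of Eef1g to Eef1d was 9.57, 9.94 and 9.68 against 10.9, 10.8 and 11.9, and that of Eef1b2 to Eef1d was 10.6, 10.5 and 11.4 against 9.84, 9.50 and 9.48. In each ratio the genotypes did not overlap. The ratios share their genes and are therefore not independent of each other. How often ratios of other gene pairs separate the genotypes was not computed. Taken singly, 24.6% of all genes tested did not overlap. Reads of Eef1b2 may also be affected by the exon sequence it shares with Ndufs1 on the opposite strand.

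Summed over their members, the 12 Eef genes held 8996 to 10098 CPM in Tarsl2+/+ mice and 10219 to 10933 CPM in Tarsl2-/- mice, without overlap. A few abundant genes carry this sum, and Eef1a1 alone makes up 53.0% of the level of the Eef genes in RPKM. The largest difference in mean CPM was that of Eef2, with 1778 in Tarsl2+/+ and 2286 in Tarsl2-/- mice and no overlap. For Eef1a1 the means were 4899 and 5140 CPM, with groups that overlapped. Of the 11 Eef genes tested, 6 log2 fold changes were above 0 and 5 below, with a median of 0.00. The 50 Eif genes held 6334 to 6749 CPM against 6601 to 6941 CPM, which overlapped, while 36 of the 48 tested were above 0, with a median log2 fold change of 0.07.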
